A study of Sus scrofa with 92 samples.

Results

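The comparison described here set livers of Fasted (FS) pigs 2 hours after resuscitation (FR2) against the same livers at Baseline (B). All pigs of the study were juvenile males of the Yorkshire-Landrace cross that were fasted overnight, had the spleen removed, and then received a captive bolt injury to the chest, hemorrhage, a liver crush injury, a period of shock, and limited followed by full resuscitation. FS pigs got nothing further, while Carbohydrate Prefed (CPF) pigs were given a sugar syrup before anesthesia. Biopsies of the liver edge were taken at B, once instruments were in place and the animal was stable and before the injuries, and at 2, 8 and 20 hours (FR2, FR8, FR20), and polyadenylated RNA was sequenced. The members were the B and FR2 libraries of 15 of the 18 FS animals, which makes 30 of the 92 libraries of the series. FS animals 13, 14 and 16 were left out because their B libraries lacked albumin, the main protein the liver secretes: ALB took 0.197, 52.7 and 0.312 CPM (counts scaled to the library's total) in that order. In the kept B library with the least ALB, that of FS animal 7, it took 59451 CPM, and in the FR2 libraries of the 3 animals left out it took 41461 to 52964 CPM. The animals were thus chosen by their measured ALB level at B, which was not tested. On the scale used below its level ran from 54200 to 173000 CPM at B (median 143000) and from 30100 to 117000 CPM at FR2 (median 98000), and it was lower at FR2 in 14 of 15 animals.

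Hepatocytes make most plasma proteins, bile acids, urea and circulating glucose. After injury they answer cytokines such as interleukin 6 through the receptor kinases JAK and the transcription factor STAT3, and shift secretion from albumin toward acute phase proteins. Shock followed by reperfusion also brings low oxygen, oxidants and misfolded protein, each of which acts through its own set of induced genes, and the animal's stress hormones and feeding state act on the same cell through nuclear receptors.

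The kept libraries held 6877117 to 14642156 counts on genes at B and 8260616 to 12984367 at FR2. Marker sums, here and below, are counts scaled to the library's total. Apart from ALB, hepatocyte markers summed to 84800 to 109000 CPM at B and 76600 to 114000 CPM at FR2, so all 30 libraries read as liver. Striated muscle markers summed to 1.32 to 33.1 CPM at B and 0.425 to 95.9 CPM at FR2, the highest in FS animal 11. Each replicate is a separate animal, and the fit has a term for each animal. The p-values below thus set a change against the spread left once each animal's own level is removed, over all libraries of the fit. In bulk tissue fewer cells of a type and less RNA per cell cannot be told apart. HTSeq's mode and strand setting were not stated, so values of near-identical genes (actins, HSP70 and HSP90 genes), overlapping genes and antisense genes are uncertain.

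Libraries of several animals stood apart, those of animals 7 and 8 the most. In the FR2 and FR8 libraries of FS animal 8, 1030 of 9992 well counted genes (10.3%) were at 0, against at most 54 in any other library. By the RefSeq annotation of Sscrofa11.1 these were all 361 placed genes of chromosome 9, all 244 of X, all 13 of the mitochondrial genome and 104 of 246 of chromosome 8, but 3 of 6272 elsewhere, so a stretch of the genome carried no counts in these libraries. Of the 1030 genes, 34 are among those called risen below and 88 among those called fallen. The change of FS animal 7 ran against that of the others. Of the 897 genes called risen in the other 14 animals, 26.2% were higher at FR2 in animal 7 (median log2 change -0.45), and of the 1160 called fallen, 38.3% were lower (median 0.23). For the other 14 animals the same comparison gave 80.3% to 96.9% and 79.8% to 90.8%, with medians of 1.00 to 1.73 and -1.42 to -0.95. The library labelled B of animal 7 correlated best with the median FR8 profile of the kept FS animals (r = 0.975, against 0.88 with B), that labelled FR2 with FR20 (0.966, against 0.853 with FR2), and that labelled FR8 with FR2 (0.975, over 6204 genes). Over the kept animals 13 of 15 B libraries, 14 of 15 FR2 libraries and 13 of 15 libraries each at FR8 and FR20 were closest to their own timepoint. Apart from those of animal 7, the exceptions were B of animal 3, closest to FR20 (0.947, against 0.931 with B), FR8 of animal 6, closest to FR20 (0.963, against 0.925 with FR8), and the FR20 libraries of animals 6 (0.925, against 0.876) and 15 (0.954, against 0.92), closest to FR8. The change from B to FR2 (FR2vB in FS) gave 1676 called genes with all 15 animals, 1652 without animal 3 and 1642 without animal 6. The labels were kept, the cause was not tested, and results are given with and without animals 7 and 8.

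**Figure D1:**
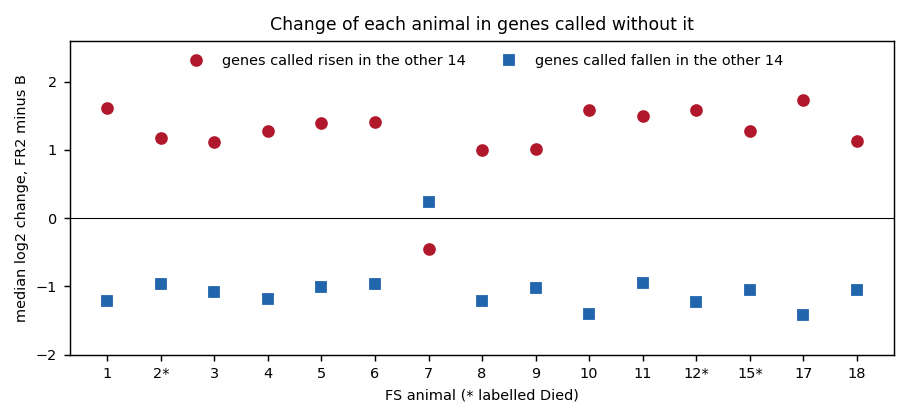
Median log2 change from B to FR2 of each FS animal over the genes called risen (red circles) or fallen (blue squares) when that animal was left out. The risen genes sit between 1.00 and 1.73 and the fallen genes between -1.42 and -0.95 in 14 animals, and only animal 7 has the opposite order (-0.45 and 0.23).

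FR2vB, the change from B to FR2, was widespread and went in both directions. Of 13530 genes tested with edgeR's quasi-likelihood test, with a term for each animal, 1676 (12.4%) were called, which took both an adjusted p (Benjamini-Hochberg) below 0.05 and a log2 fold change of 1 or more in size. Of these, 724 rose (5.35%) and 952 fell (7.04%), and by the adjusted p alone 2827 were higher (20.9%) and 3280 lower (24.2%). The median log2 fold change of all genes was -0.08. Without animals 7 and 8, 936 of 13393 genes rose (6.99%) and 1096 fell (8.18%), and 1571 genes were called in both fits, all in the same direction, which is 93.7% of the first set and 77.3% of the second. A gene symbol was known for 1325 of the 1676 genes. Below, "rose" and "fell" are used for called genes, levels are CPM after TMM scaling given as the lowest, median and highest of the 15 animals, and changes are log2 fold changes ± SE (n = 15 pairs).

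The 10 genes that rose with the smallest adjusted p were BCAR1, NOD1, CCSER2, ARF6, TSPAN14, SRXN1, BCL9, CLDN4, TXNRD1 and MAP4K4, by 2.44-fold (MAP4K4) to 11.5-fold (CLDN4). BCAR1, the adaptor of integrin signaling p130Cas, had 27.5, 38.3 and 76.4 CPM at B and 39.7, 176 and 265 CPM at FR2, and it rose 4.15-fold (2.05 ± 0.18, adjusted p = 1.08e-12). All B levels apart from those of animals 7 and 8 lay below all such FR2 levels. NOD1, the cytosolic sensor of bacterial peptidoglycan, rose 8.93-fold from 0.628, 2.13 and 7.24 CPM at B to 5.21, 24.1 and 62.9 CPM at FR2 (3.16 ± 0.28, adjusted p = 1.08e-12). SRXN1, the sulfiredoxin that restores oxidized peroxiredoxins, had 25.9, 54.7 and 264 CPM at B and 249, 615 and 810 CPM at FR2 and was higher at FR2 in 15 of 15 animals (2.84 ± 0.27, adjusted p = 9.45e-12). TXNRD1, thioredoxin reductase, went from 66.5, 97.8 and 227 CPM at B to 207, 360 and 494 CPM at FR2 and also rose in all 15 (1.59 ± 0.16, adjusted p = 1.87e-11). For NOD1 and SRXN1 the timepoints did not overlap once animals 7 and 8 were set aside, while for TXNRD1 they did. CLDN4, a tight junction claudin of bile duct epithelium, rose 11.5-fold, with 10.4, 26.6 and 208 CPM at B and 116, 399 and 780 CPM at FR2 (3.53 ± 0.35, adjusted p = 1.87e-11). Its highest B level, 208 CPM, was that of animal 7.

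Of the other risen genes of this set, ARF6, a small GTPase of endocytosis and actin remodeling, changed by 1.60 ± 0.15 (adjusted p = 4.74e-12). TSPAN14, a tetraspanin that escorts the protease ADAM10, changed by 1.78 ± 0.17 (adjusted p = 9.45e-12), BCL9, a coactivator of beta-catenin, by 2.19 ± 0.22 (adjusted p = 1.87e-11), and the kinase MAP4K4 by 1.29 ± 0.13 (adjusted p = 1.93e-11). CCSER2 changed by 1.36 ± 0.12 (adjusted p = 2.66e-12). The largest adjusted p of the 10 was 1.93e-11, and without animals 7 and 8 their log2 fold changes ran from 1.31 to 3.67.

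Among the genes that fell with the smallest adjusted p, STARD13, a brake on the GTPase RhoA, had 31.7, 83.2 and 127 CPM at B and 13.5, 24.3 and 42.2 CPM at FR2 and fell in 14 of 15 animals (-1.78 ± 0.17, adjusted p = 4.74e-12). OXSM, the ketoacyl synthase of mitochondrial fatty acid synthesis, had 14.8, 22.9 and 30.1 CPM at B and 4.49, 5.54 and 25.4 CPM at FR2 (-1.68 ± 0.18, adjusted p = 2.36e-10), and its FR2 maximum was the level of animal 7. CFAP20, a protein of cilia, fell the most of this set, from 8.66, 84.3 and 123 CPM at B to 4.79, 14.3 and 24.3 CPM at FR2 (-2.47 ± 0.27, adjusted p = 1.68e-10). For all 3 the levels at B and FR2 did not overlap among the 13 animals other than 7 and 8. PGM5, a relative of phosphoglucomutase found at cell adhesions, fell by 1.46 on the log2 scale and overlapped between timepoints. DDB2 (-1.41), a sensor of ultraviolet damage, POT1 (-1.41), which caps telomeres, and TEP1 (-1.25), a telomerase-associated protein, act on DNA and telomeres. PRKD2 (-1.21), a protein kinase D, FN3KRP (-1.21), which removes sugar adducts from proteins, and TMEFF2 (-1.20) complete the 10, and the largest adjusted p was 8.02e-10.

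**Figure D2:**
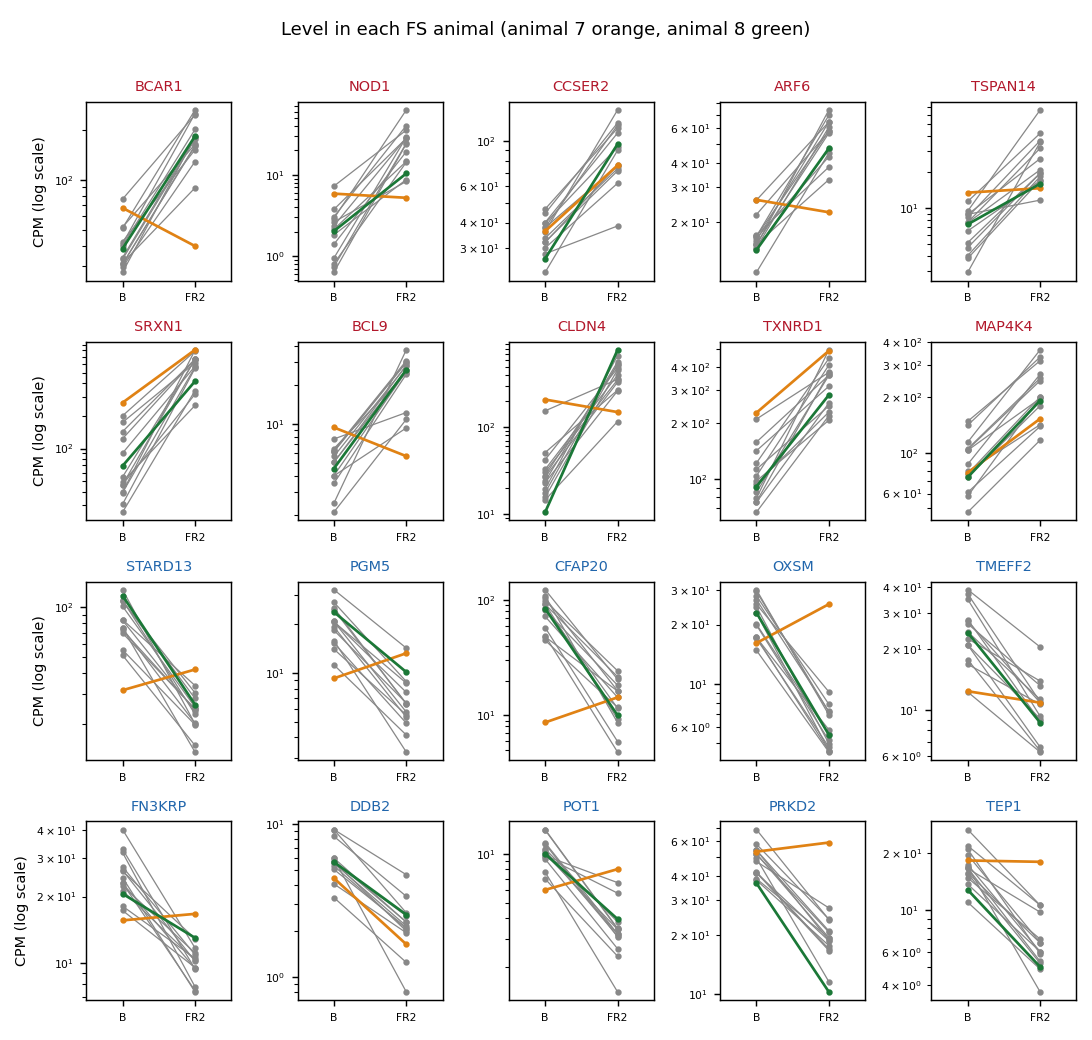
Level of the 10 risen (red names) and 10 fallen (blue names) genes with the smallest adjusted p, as TMM-scaled CPM on a log axis, 1 line per FS animal from B to FR2. Animal 7 (orange) goes against the other animals for BCAR1, NOD1, ARF6, BCL9 and CLDN4 and for most of the fallen genes, and animal 8 (green) moves with the others.

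Among genes with a symbol and a median of at least 10 CPM at B or FR2, 5 were taken for the largest rises, of which 4 had a median under 1 CPM at B. TGM3, an epidermal transglutaminase, had 0, 0.205 and 3.78 CPM at B and 0.0744, 14.4 and 53.3 CPM at FR2 (4.54 ± 0.61, adjusted p = 2.61e-08), and its B levels rested on a few counts in most libraries. FGF23, the phosphate-lowering hormone known from bone, had 0, 0.837 and 1.51 CPM at B and 1.88, 13 and 43.9 CPM at FR2 (4.22 ± 0.57, adjusted p = 2.99e-08), so the lowest FR2 library stood above the highest B library with all 15 animals included. ATP6V0D2, a subunit of the vacuolar proton pump, had 0.101, 0.557 and 16.4 CPM at B and 1.19, 13.6 and 83.8 CPM at FR2 (4.08 ± 0.55, adjusted p = 2.25e-08). XIRP1, an actin-binding protein of muscle, had 0, 0.144 and 7.44 CPM at B and 0, 10.1 and 45.9 CPM at FR2 (3.82 ± 0.86, adjusted p = 0.000256), rose in 13 of 15 animals and was at 0 in animal 7 at FR2.

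With the same limit of 10 CPM the largest falls were of C3orf58, CYP7A1, CFAP20, THRB and MAP2K6. CYP7A1, the rate-limiting enzyme of bile acid synthesis, had 22.7, 180 and 663 CPM at B and 5.08, 32.2 and 116 CPM at FR2 and fell 7.15-fold (-2.84 ± 0.48, adjusted p = 3.24e-06), with B and FR2 overlapping because B itself spread widely. THRB, a thyroid hormone receptor, had 15, 27.1 and 45.8 CPM at B and 1.97, 4.86 and 39.4 CPM at FR2 (-2.33 ± 0.31, adjusted p = 2.65e-08), and its FR2 maximum was animal 7. C3orf58 fell from 3.12, 26.0 and 57.9 CPM at B to 1.45, 3.37 and 6.08 CPM at FR2 (-2.92 ± 0.38, adjusted p = 1.21e-08), and MAP2K6, a kinase upstream of p38, from 2.08, 13.9 and 18.8 CPM at B to 0.781, 2.6 and 7.57 CPM at FR2 (-2.32 ± 0.31, adjusted p = 1.98e-08). Among the genes of drug metabolism, NR1I3, the receptor CAR that switches on drug metabolism, fell in 14 of 15 animals (-2.24 ± 0.36, adjusted p = 8.81e-07) and reached its highest FR2 level, 49.4 CPM, in animal 7.

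Of 16 tested genes of a list of cytokine receptors and STAT3 signaling, 6 rose and none fell (median 0.53, and 6 risen without animals 7 and 8), where 5.35% of all genes rose and 7.04% fell. Not every receptor of the list is specific to STAT3, and whether any acted through it was not tested. The 6 were IL4R, OSMR, IL1R1, STAT3, PIM1 and JAK1. OSMR, the receptor of oncostatin M, had 18.1, 24.2 and 96.2 CPM at B and 58.2, 144 and 195 CPM at FR2 (2.02 ± 0.23, adjusted p = 3.66e-10). IL4R, shared by interleukins 4 and 13, had 51.2, 97.8 and 143 CPM at B and 52.6, 340 and 520 CPM at FR2 (1.83 ± 0.20, adjusted p = 1.68e-10), and IL1R1, the interleukin 1 receptor and the most abundant of the list, had 448, 652 and 759 CPM at B and 459, 1700 and 3160 CPM at FR2 (1.38 ± 0.16, adjusted p = 8.02e-10). For these 3 receptors B and FR2 did not overlap outside animals 7 and 8. STAT3 itself changed by 1.32 ± 0.22 (adjusted p = 1.79e-06) and its target kinase PIM1 by 1.05 ± 0.18 (adjusted p = 4.6e-06).

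Innate sensing, immediate early genes and chemokines moved less evenly. Over all genes 5.35% rose and 7.04% fell, or 6.99% and 8.18% without animals 7 and 8. In the innate sensing and NF-kappaB list 3 of 26 genes rose (median 0.36), which were NOD1, its partner kinase RIPK2 (1.07 ± 0.13, adjusted p = 4.78e-09) and the IkappaB family protein BCL3 (1.46 ± 0.27, adjusted p = 1.2e-05). The monocyte lipopolysaccharide receptor CD14, the most abundant of that list, had a difference of -0.30 ± 0.12 (adjusted p = 0.038). Immediate early genes gave 4 risen and 1 fallen of 19 (median 0.52, and 0.72 with 5 risen and 1 fallen without animals 7 and 8). The Jun partner FOSL1 had 1.51, 2.78 and 5.87 CPM at B and 1.34, 5.51 and 45.3 CPM at FR2 (1.43 ± 0.35, adjusted p = 0.000682), and CSRNP1, EGR1 and IER5 were the other 3, with log2 fold changes of 1.05, 1.31 and 1.12. CSRNP1 went to 0.97 or 0.98, below the threshold, without animal 3, 6 or 17. The nuclear receptor NR4A2 fell by 1.36 on the log2 scale, a call that ended without animal 2 (-1.04, adjusted p = 0.0563). FOS spread from 3.35 to 203 CPM at FR2 and did not pass (1.08 ± 0.55, adjusted p = 0.10). Of 14 chemokines and adhesion molecules 1 rose and 1 fell, close to the 5.35% and 7.04% of all genes, and 3 rose and none fell without animals 7 and 8. CXCL14 rose (1.13 ± 0.35, adjusted p = 0.007, and 0.99 without animal 2) and CXCL11, an interferon-induced chemokine, fell (-1.04 ± 0.38, adjusted p = 0.022). The CXCL11 call ended without any 1 of animals 1, 5, 8, 10 and 11 (-1.0 to -0.91), and without animals 7 and 8 together (-0.99).

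A few acute phase genes passed both thresholds. Of 13 positive acute phase genes 3 rose and none fell (median 0.44), where 5.35% of all genes rose and 7.04% fell. LCN2, lipocalin 2, an iron-sequestering protein, had 0.174, 1.69 and 35.1 CPM at B and 3.57, 11.5 and 35.1 CPM at FR2 (2.42 ± 0.46, adjusted p = 1.96e-05), and ITIH4, the major acute phase protein of pigs, had 725, 1390 and 12000 CPM at B and 1320, 4380 and 11500 CPM at FR2 (1.25 ± 0.32, adjusted p = 0.00119). The third was TIMP1, an inhibitor of matrix metalloproteinases, with 1.82 ± 0.50, or 2.00 without the libraries of animal 8 in which it is at 0. FGG, the fibrinogen gamma chain and the most abundant of the list, differed by 0.77 ± 0.19 (adjusted p = 0.000715) and so passed the adjusted p without reaching the fold threshold. The highest B level of both ITIH4 and FGG was animal 7. Of 11 negative acute phase genes, which include TTR and AHSG, 1 fell and 8 were lower by the adjusted p alone (median -0.52). Over all genes 7.04% fell and 24.2% were lower by the adjusted p. The gene that fell was SERPINA6, the carrier of corticosteroids in plasma, with 21.4, 480 and 720 CPM at B and 59.0, 204 and 345 CPM at FR2 (-1.01 ± 0.32, adjusted p = 0.00826), and it went to -0.99 without animal 1, 4, 5 or 17. AHSG, fetuin A, differed by -0.46 ± 0.16 (adjusted p = 0.014).

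Heat shock proteins had the highest median of the 31 pathway lists. Of 18 tested, 7 rose and none fell (median 0.78), where 5.35% of all genes rose, and 8 rose with a median of 0.90 without animals 7 and 8, where 6.99% of all genes did. DNAJB1, the cochaperone that is a sensitive target of HSF1, had 28.1, 49.6 and 255 CPM at B and 94.8, 293 and 1500 CPM at FR2 (2.36 ± 0.33, adjusted p = 6.94e-08). HSPH1, DNAJA1, STIP1 and CHORDC1, which are further cochaperones, and the chaperones HSPA8 and HSP90AA1 were the others. STIP1, which links HSP70 to HSP90, had 34.9, 40.9 and 183 CPM at B and 77.5, 131 and 199 CPM at FR2 (1.22 ± 0.20, adjusted p = 2.29e-06), and HSP90AA1 had 270, 369 and 1970 CPM at B and 580, 972 and 2670 CPM at FR2 (1.15 ± 0.23, adjusted p = 5.11e-05). The highest B library of DNAJB1, STIP1 and HSP90AA1 was in each case that of animal 7, and HSPA8 and CHORDC1 were at 0 in animal 8 at FR2.

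Targets of low oxygen rose in part, and those of oxidants and drugs went both ways. Of 22 hypoxia inducible factor targets 5 rose and none fell (median 0.49, and 7 risen without animals 7 and 8), against 5.35% of all genes risen (6.99% without those animals). PFKFB3, which drives glycolysis, had 0.179, 0.907 and 2.88 CPM at B and 1.19, 5.71 and 16.8 CPM at FR2 (2.56 ± 0.40, adjusted p = 5.59e-07), and EGLN3, the oxygen sensor that marks the factor for destruction, had 3.23, 7.73 and 19.3 CPM at B and 4.22, 22.0 and 70.7 CPM at FR2 and rose in 15 of 15 animals (1.32 ± 0.22, adjusted p = 1.93e-06). ADM (2.05), HK2 (1.73) and EPO (4.16) were the others. EPO, erythropoietin, had a median of 0 CPM at B and 2.57 CPM at FR2 (highest 10.1) and was higher at FR2 in 14 of 15 animals, on few counts. ENO1, the most abundant target, differed by 0.76 ± 0.13 (adjusted p = 4.07e-06). Among 16 genes of drug and antioxidant metabolism 3 rose (SRXN1, TXNRD1, NQO1) and 3 fell (NR1I3, GCLC, CYP1A1), against 5.35% and 7.04% of all genes. NQO1 reached 1930 CPM at FR2 in animal 7 and its call ended without animals 7 and 8 (1.01 against 0.67, adjusted p = 0.069). GCLC, which makes glutathione, reached 1630 CPM in animal 7 at FR2 while the FR2 median was 49.5 CPM. Its fall (-1.06 ± 0.37, adjusted p = 0.0163) stood at -1.42 without animals 7 and 8, at -1.0 to -0.95 and so below the threshold without any 1 of animals 3, 8, 10, 15 and 17, and at 0.07 without animal terms.

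The unfolded protein response had no called gene among 16 by edgeR's test at FR2vB, nor by DESeq2 (3 genes at an unadjusted p under 0.05). Of the 2 that were higher by the adjusted p alone, the sensor ATF6 had the larger difference (0.86 ± 0.22, adjusted p = 0.000979). The median was 0.10, or 0.36 without animals 7 and 8, where HSPA5, the chaperone BiP, rose (1.02, adjusted p = 0.0049, against 0.65 with all 15). HSPA5 stood at 7570 CPM in animal 7 at B, where the median was 569 CPM. The amino acid stress list of ATF4 split: of 18 genes 3 rose (CEBPG, SLC7A1, STC2) and 4 fell (VLDLR, SESN2, PSPH, PSAT1), against 5.35% and 7.04% of all genes. SLC7A1, a transporter of arginine and lysine, had 0.864, 3.23 and 9.21 CPM at B and 2.68, 6.66 and 17.4 CPM at FR2 (1.42 ± 0.30, adjusted p = 8.78e-05), and SESN2, a leucine sensor, had 7.55, 59.4 and 194 CPM at B and 5.73, 17.7 and 93.3 CPM at FR2 (-1.78 ± 0.30, adjusted p = 3.52e-06). VLDLR, a lipoprotein receptor, fell in 15 of 15 animals (-1.03 ± 0.15, adjusted p = 8.76e-08) but stood at -0.98 without animal 12, and CEBPG at 0.95 to 0.99 without any 1 of animals 1, 6, 10, 12 and 17.

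All 28 tested ribosome biogenesis genes were higher at FR2 by the adjusted p, against 20.9% of all genes, with log2 fold changes of 0.22 to 1.14 (median 0.77). Only 3 reached the fold threshold, the processing factor RRP12, the nucleolar NOP56 and the pseudouridine synthase DKC1, and 9 did without animals 7 and 8. NPM1, nucleophosmin, had 285, 453 and 561 CPM at B and 567, 745 and 980 CPM at FR2 (0.83 ± 0.11, adjusted p = 8.49e-09), so the lowest FR2 level was above the highest B level with every animal included. RRP12 differed by 1.04 ± 0.15 (adjusted p = 1.15e-07) and NOP56 by 1.03 ± 0.18 (adjusted p = 4.84e-06), and each slipped to between 0.98 and 1.00 without some single animals (4 and 17 for RRP12, and 3, 10, 12 and 18 for NOP56). In the proteasome list 13 of 17 subunits were higher by the adjusted p, against 20.9% of all genes, with a median of 0.35. None was called by edgeR or DESeq2 with all 15 animals (13 at an unadjusted p under 0.05), and edgeR called 2 without animals 7 and 8. The core subunit PSMA5 had the largest difference (0.95 ± 0.13, adjusted p = 4.58e-08) and the regulatory ATPase PSMC5 the lowest (-0.05 ± 0.07, adjusted p = 0.599). Of 20 subunits of the respiratory chain none was called by edgeR or DESeq2 (7 at an unadjusted p under 0.05), and they ran from -0.41 (SDHC) to 0.37 (UQCRFS1).

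Cytoskeleton genes that passed both thresholds rose, and matrix genes had few calls in either direction. Of 21 nonmuscle cytoskeleton genes 5 rose and none fell (median 0.58, and 6 risen without animals 7 and 8), against 5.35% of all genes risen (6.99% without those animals). KRT8, a keratin of hepatocytes and bile duct cells, had 220, 355 and 1750 CPM at B and 547, 2800 and 5310 CPM at FR2 (2.35 ± 0.31, adjusted p = 1.83e-08), and its partner KRT18 changed by 2.12 ± 0.33 (adjusted p = 4.27e-07). ACTG1, cytoplasmic gamma actin, had 564, 1230 and 1690 CPM at B and 669, 2830 and 5020 CPM at FR2 (1.40 ± 0.23, adjusted p = 1.29e-06), was higher in 15 of 15 animals, and did not overlap outside animals 7 and 8. EZR, ezrin, which ties actin to the membrane, changed by 1.17 ± 0.16 (adjusted p = 2.07e-08), and TPM4, a tropomyosin, by 1.06 ± 0.14 (adjusted p = 2.77e-08). The matrix list gave 2 risen and 2 fallen of 21 (median 0.03, and 0.27 without animals 7 and 8), where 5.35% of all genes rose and 7.04% fell. ADAMTS4, an aggrecan-cutting protease, rose (2.16 ± 0.47, adjusted p = 0.000167) with TIMP1, and the membrane protease MMP15 fell (-1.16 ± 0.23, adjusted p = 3.69e-05). COL1A2, a chain of type I collagen, was at 0 in animal 8 at FR2 and at 268 CPM at B. It fell by 1.20 on the log2 scale with that animal, but differed by -0.99 without its FR2 and FR8 libraries, below the fold threshold.

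**Figure D3:**
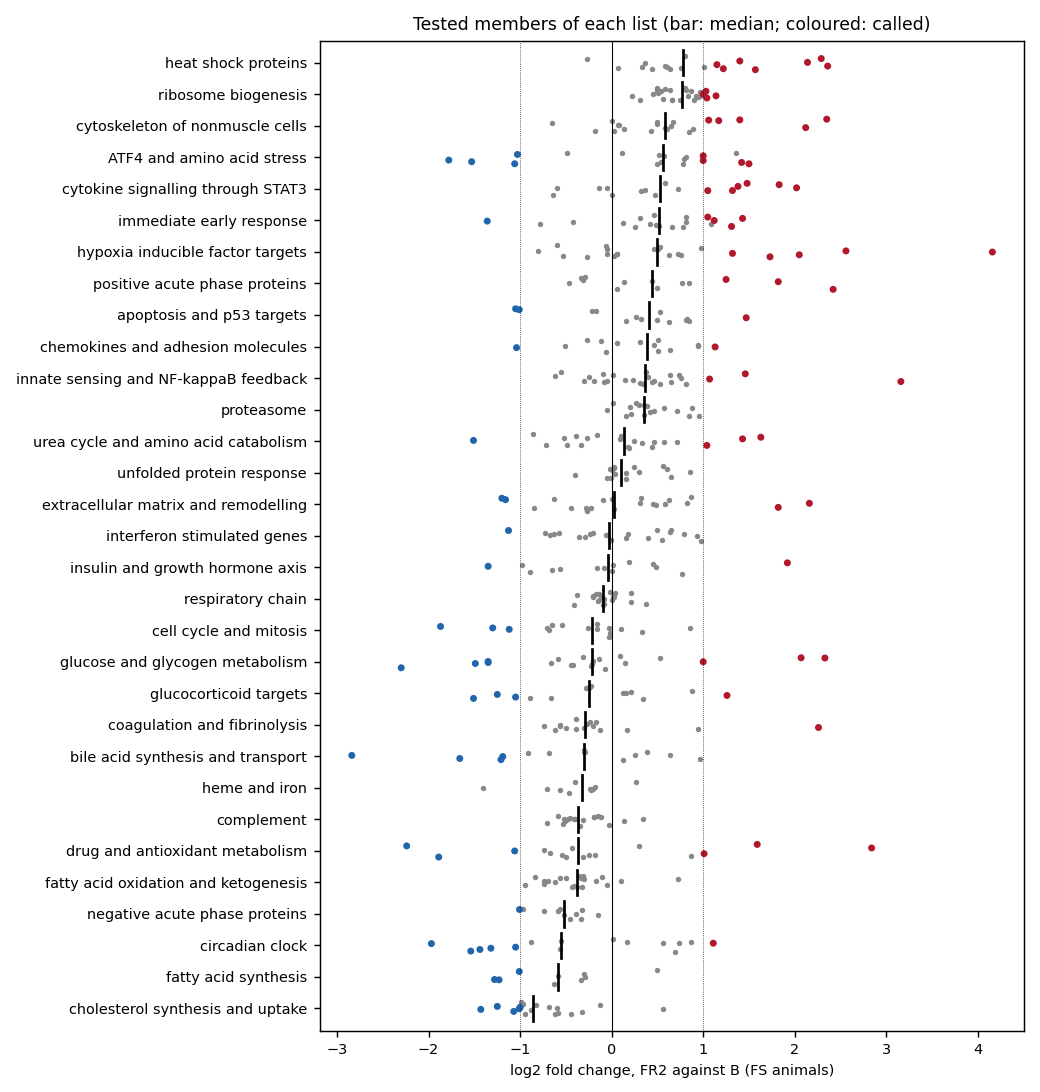
Log2 fold change from B to FR2 of each tested gene in 31 lists, ordered by the list's median (black bar), with called genes in red (risen) or blue (fallen) and the others in gray. Heat shock proteins (median 0.78) and ribosome biogenesis (0.77) stand at the top and cholesterol synthesis (-0.86) at the bottom, and dotted lines mark the fold threshold.

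Most tested genes of cholesterol synthesis were lower at FR2. Of 18 genes of cholesterol synthesis and uptake 5 fell and none rose, where 7.04% of all genes fell, and 11 were lower by the adjusted p (median -0.86). FDFT1, squalene synthase, had 48.0, 238 and 547 CPM at B and 24.0, 85.2 and 383 CPM at FR2 (-1.43 ± 0.37, adjusted p = 0.00112). INSIG1, SQLE and SC5D also fell, and the last of these, at 0 in animal 8 at FR2, went from -1.0 to -0.76 without animals 7 and 8. MSMO1, the most abundant, differed by -0.88 ± 0.32 (adjusted p = 0.019). Animal 7 had the lowest B level of FDFT1 and MSMO1. Of 9 fatty acid synthesis genes 3 fell (median -0.59). MLXIPL, the carbohydrate-responsive factor ChREBP, had 41.0, 110 and 169 CPM at B and 22.4, 38.5 and 160 CPM at FR2 (-1.28 ± 0.18, adjusted p = 4.55e-08), FASN, fatty acid synthase, reached 1100 CPM at B in 1 animal (-1.23 ± 0.45, adjusted p = 0.0211), and the desaturase FADS1 (-1.01 ± 0.34, adjusted p = 0.0136) stood at -1.0 to -0.92 without any 1 of animals 2, 4, 8, 10, 17 and 18. In fatty acid oxidation and ketogenesis 12 of 21 genes were lower by the adjusted p, against 24.2% of all genes, and none higher (median -0.38). None was called by edgeR or DESeq2 (16 at an unadjusted p under 0.05). CPT2, which completes the transfer of acyl chains into the mitochondrion, had the lowest value (-0.95 ± 0.16, adjusted p = 2.17e-06), and edgeR called it fallen without animals 7 and 8 (-1.03, adjusted p = 8.02e-07).

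CYP7A1 was 1 of 4 genes that fell, and none rose, among 14 genes of bile acid synthesis and transport (median -0.30), where 7.04% of all genes fell. ABCB11, the bile salt export pump, changed by -1.21 ± 0.31 (adjusted p = 0.00098), and SLC10A1, the sodium-driven uptake carrier on the blood side, by -1.19 ± 0.32 (adjusted p = 0.00178). SLCO2B1, an organic anion carrier at 0 in animal 8 at FR2, fell by 1.66 on the log2 scale, or by 1.46 without that animal's FR2 and FR8 libraries. CYP27A1, the mitochondrial enzyme of the alternative pathway, had a difference of -0.30 ± 0.16 (adjusted p = 0.119).

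Glucose and nitrogen metabolism split by gene. Of 20 genes of glucose and glycogen metabolism 3 rose and 4 fell (median -0.22), against 5.35% and 7.04% of all genes. PPP1R3C, which brings phosphatase to glycogen, had 2.67, 10.6 and 153 CPM at B and 16.8, 78.5 and 731 CPM at FR2 (2.07 ± 0.48, adjusted p = 0.000359). PPP1R3B also rose, and its call ended without animals 7 and 8 (1.00 against 0.90, adjusted p = 0.073). FOXO1, the fasting transcription factor that insulin signaling removes from the nucleus, had 23.0, 65.7 and 130 CPM at B and 11.7, 27.9 and 35.1 CPM at FR2 (-1.35 ± 0.19, adjusted p = 8.94e-08) and was lower in 15 of 15 animals. PDK2 and PFKFB1 also fell, whereas the gluconeogenic enzyme PCK1 differed by -0.66 ± 0.37 (adjusted p = 0.136). Of 22 urea cycle and amino acid genes 3 rose and 1 fell (median 0.14), with the same shares over all genes. NAGS, which makes the activator of the first urea cycle step, had 43.7, 105 and 298 CPM at B and 164, 352 and 700 CPM at FR2 (1.63 ± 0.24, adjusted p = 1.32e-07), and ARG1, arginase, had 334, 638 and 2330 CPM at B and 308, 1850 and 3090 CPM at FR2 (1.43 ± 0.29, adjusted p = 6.86e-05). HAL, histidine ammonia lyase, also rose (1.04), and TAT, tyrosine aminotransferase, fell from 379, 3420 and 7380 CPM at B to 275, 1110 and 2340 CPM at FR2 (-1.51 ± 0.41, adjusted p = 0.00238). CPS1, the most abundant of the list, differed by 0.44 ± 0.21 (adjusted p = 0.0843). On the insulin and growth hormone axis FOXO1 fell and PIK3R1 rose (1.92 ± 0.49) at medians of 0.241 CPM at B and 0.832 CPM at FR2, of 14 tested.

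Glucocorticoid targets and clock genes had calls in both directions, where 5.35% of all genes rose and 7.04% fell. Of 15 glucocorticoid targets 1 rose and 3 fell (2 and 3 without animals 7 and 8). FKBP5, a cochaperone of the receptor, rose (1.26 ± 0.28, adjusted p = 0.000207) and KLF9 (-1.25 ± 0.29, adjusted p = 0.000408), TAT and PER1 fell (median -0.25). KLF9 had 30.3, 408 and 574 CPM at B and 47.5, 148 and 276 CPM at FR2, and its lowest B level was that of animal 7. IGFBP1, the most abundant, differed by -0.89 ± 0.37 (adjusted p = 0.0439). Of 15 circadian clock genes 5 fell and 1 rose (median -0.55, and 6 fallen and 3 risen without animals 7 and 8). PER2, a repressor of the clock, had 1.43, 45.8 and 65.4 CPM at B and 6.51, 13.4 and 48.6 CPM at FR2 (-1.54 ± 0.32, adjusted p = 7.47e-05), and NR1D2, REV-ERB beta, had 14.9, 88.7 and 173 CPM at B and 15.2, 34.7 and 156 CPM at FR2 (-1.44 ± 0.32, adjusted p = 0.000164). DBP, HLF and PER1 also fell, with log2 fold changes of -1.97, -1.32 and -1.05, and PER1 stood at -0.98 without animal 12 (adjusted p = 0.05) and at -0.99 without animal 18. CRY1, another repressor, had 8.5, 16.1 and 26.4 CPM at B and 1.86, 39.0 and 59.6 CPM at FR2 and rose (1.11 ± 0.32, adjusted p = 0.00326). B and FR2 biopsies were taken at different hours of the experiment, and clock hour and treatment cannot be told apart.

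Plasma cascades and interferon genes showed few calls, and death and division genes some, where 5.35% of all genes rose and 7.04% fell. PLAT, tissue plasminogen activator, was the only 1 of 16 coagulation genes called risen and none fell, with 3.37, 7.02 and 24.2 CPM at B and 2.53, 39.0 and 157 CPM at FR2 (2.25 ± 0.37, adjusted p = 2e-06), while 7 of the list were lower by the adjusted p, against 24.2% of all genes. That share applies to the counts of lower genes in the next lists too, and those of the heme and T and NK cell lists lie near or below it. None of 18 complement genes was called by edgeR or DESeq2 (7 at an unadjusted p under 0.05), and 7 were lower by the adjusted p (median -0.37), with MBL2, mannose-binding lectin, at -0.71 ± 0.41 with all 15 animals and at -1.09 (adjusted p = 0.011) without animals 7 and 8. Of 10 heme and iron genes edgeR called none (4 at an unadjusted p under 0.05) and DESeq2 called 1 fallen, and 3 were lower by the adjusted p. In the interferon list OASL fell (-1.13 ± 0.40, adjusted p = 0.0177) among 22, at medians of 0.705 CPM at B and 0.256 CPM at FR2. That call ended without animal 5 (-0.98), and OAS2, the most abundant, differed by -0.63 ± 0.25 (adjusted p = 0.0386). Of 14 apoptosis and p53 targets the death receptor FAS rose (1.47 ± 0.22, adjusted p = 1.87e-07), and SESN1 (-1.05 ± 0.21, adjusted p = 6.25e-05) and BBC3 (-1.01 ± 0.31, adjusted p = 0.00635) fell. By the adjusted p 8 of the 14 were higher, against 20.9% of all genes. SESN1 stood at -0.99 to -0.98 without animal 8, 9 or 10, and BBC3 at -0.97 to -0.83 without any 1 of animals 4, 5, 8, 10, 15 and 18. Of 16 cell cycle genes CCNE2, E2F1 and BUB1B fell, and CCNE2, cyclin E2, went from 0.846, 3.02 and 4.78 CPM at B to 0, 0.917 and 1.27 CPM at FR2 (-1.87 ± 0.38, adjusted p = 6.83e-05), while TOP2A, the most abundant, differed by -0.54 ± 0.26 (adjusted p = 0.0896).

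Markers of other cells than hepatocytes were also measured at both timepoints, where 5.35% of all genes rose and 7.04% fell. Sums are scaled to the library's total and single genes by TMM, so a gene's exact share of a sum cannot be read from the values below. Summed bile duct markers went from 44.8 to 347 CPM at B to 159 to 907 CPM at FR2, higher in 14 of 15 animals. The median of this sum went from 74.2 to 450.0 CPM. CLDN4, the most abundant of the list, had TMM-scaled medians of 26.6 CPM at B and 399 CPM at FR2. CLDN4 was the only 1 of the 5 tested that was called, while SOX9 differed by -0.32 ± 0.20 (adjusted p = 0.176). Summed neutrophil markers ran from 4.64 to 17.5 CPM at B and from 4.74 to 21.4 CPM at FR2, higher in 13 of 15, and the granule protein LTF (3.82 ± 0.58, adjusted p = 3.45e-07) and the alarmin S100A8 (3.45 ± 0.63, adjusted p = 9.87e-06) rose among 5 tested (list median 0.31). Both were low, with medians of 0.096 CPM at B and 1.8 CPM at FR2 for LTF, and 0.144 and 3.93 CPM for S100A8. Stellate cell and fibroblast markers summed to 524 to 1710 CPM at B and 403 to 970 CPM at FR2, higher in 1 animal. Their most abundant member, the collagen COL3A1, differed by -0.85 ± 0.14 (adjusted p = 1.52e-06). Its median was 676 CPM at B and 368 CPM at FR2, where that of the sum was 909 and 583 CPM. Of 10 tested, 2 were higher and 4 lower by the adjusted p. Macrophage markers summed to 1050 to 1710 CPM at B (median 1300) and 980 to 1650 CPM at FR2 (median 1120). CD14 was the most abundant of the list, with TMM-scaled medians of 985 and 848 CPM. Of 9 tested, 1 was higher and 6 lower by the adjusted p. The integrin ITGAM fell (-1.13 ± 0.24, adjusted p = 9.51e-05) at medians of 2.3 CPM at B and 1.07 CPM at FR2. STAB1, a scavenger receptor of sinusoidal endothelium, fell (-1.08 ± 0.17, adjusted p = 1.14e-06) among 11 endothelial markers of which PECAM1 differed by -0.04 ± 0.11 (adjusted p = 0.792). T and NK cell markers had no call among 13 by edgeR or DESeq2 (3 at an unadjusted p under 0.05) and 2 lower by the adjusted p, with GNLY at -0.80 ± 0.21 (adjusted p = 0.00117). Among 5 B cell markers CD22 fell (-1.30 ± 0.37, adjusted p = 0.00299) and CD79B differed by -0.67 ± 0.32 (adjusted p = 0.0826). PLIN4 rose (2.34 ± 0.43, adjusted p = 1.09e-05) and PLIN1 fell (-1.43 ± 0.41, adjusted p = 0.00335) of 3 adipocyte markers. Median levels at B and FR2 were low, at 1.06 and 0.359 CPM for CD22, 0.576 and 6.04 CPM for PLIN4, and 1.75 and 0.423 CPM for PLIN1. Erythroid markers had no call among 3 by either tool (1 at an unadjusted p under 0.05), and HBB was at 0 in animal 8 at FR2. Of 16 tested hepatocyte markers, which include no ALB here, 3 were higher and 7 lower by the adjusted p (20.9% and 24.2% of all genes), with a median of -0.31. The only 1 called was HNF4A, the master regulator of the hepatocyte, which had 370, 589 and 825 CPM at B and 391, 1390 and 1920 CPM at FR2 and rose (1.13 ± 0.14, adjusted p = 2.38e-09). The part of these cells in the changes above was not tested.

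FR8 libraries of the same animals were set against the FR2 libraries to see which levels moved on. This contrast shares the FR2 libraries with FR2vB, and FR8vB and FR20vB share its B libraries, so the values are set side by side only. Of 13530 genes 888 were higher at FR8 than at FR2 (6.56%) and 774 lower (5.72%), or 1131 and 973 of 13393 without animals 7 and 8. Without animal 6, whose FR8 library was closest to FR20, FR8 minus FR2 in FS gave 867 higher and 763 lower. Of the unfolded protein response list 10 of 16 genes were higher at FR8, where 6.56% of all genes were, and 1 was lower (median difference 1.21), among them HSPA5 (1.71) and PDIA4 (2.02). Cholesterol genes were lower still at FR8, 12 of 18, where 5.72% of all genes were, with none higher (median -1.39). Lower at FR8 than at FR2 were also 5 of 9 fatty acid synthesis genes and 11 of 15 glucocorticoid targets. The same held for 10 of 19 immediate early genes and 9 of 22 urea cycle and amino acid genes. Against B at FR2, the immediate early list had a median of 0.52 and the urea cycle list 0.14. FASN differed by -3.03, PER2 by -2.75 and FKBP5 by -2.11 between FR8 and FR2. All 10 leading risen genes were lower at FR8 than at FR2 by the adjusted p (-1.35 to -0.37), and against B they ran from 0.53 to 2.59 at FR8 and from 0.26 to 2.23 at FR20. Of the 10 leading fallen genes 6 passed the adjusted p, all higher at FR8, with TEP1 at 1.34 (adjusted p = 1.87e-10), OXSM at 1.30 (adjusted p = 9.53e-08) and PRKD2 at 1.11 (adjusted p = 6.92e-09). NR1I3 differed by 2.64 (adjusted p = 5.99e-08) and THRB by 1.54 (adjusted p = 5.93e-05). KRT8 (0.02 ± 0.28, adjusted p = 0.961), OSMR (-0.06 ± 0.21, adjusted p = 0.852), STAT3 (0.03 ± 0.21, adjusted p = 0.915) and LCN2 (-0.01 ± 0.39, adjusted p = 0.991) had no detectable difference between FR8 and FR2.

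**Figure D4:**
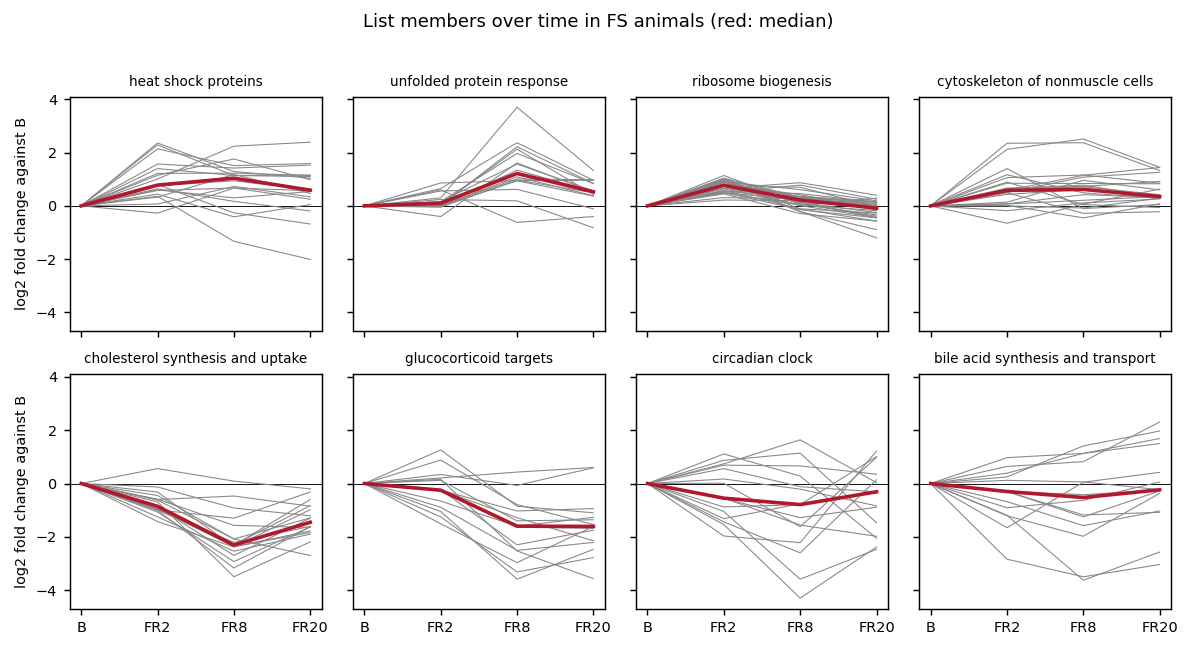
Log2 fold change against B at FR2, FR8 and FR20 of each tested gene in 8 lists (gray lines, FS animals) with the list median in red. The points of a line share the B libraries, and the median of the unfolded protein response is near 0 at FR2 (0.10) while that of heat shock proteins is at 0.78.

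FR2vB was also tested in the CPF animals, whose B and FR2 libraries are not those of the FS contrast but shared its fit, and so its estimate of the spread and its gene filter. Of the 724 genes that rose in FS pigs, 704 (97.2%) were higher at FR2 in the 5 CPF pigs, 233 were called risen there and 1 was called fallen. Of the 952 that fell, 889 (93.4%) were lower and 152 were called fallen. Of all genes, 48.1% were higher in CPF. The CPF contrast itself had 315 risen and 261 fallen genes. Of the 10 leading risen genes all passed the adjusted p in CPF and 9 were called (0.89 to 2.62), and of the 10 leading fallen genes 9 passed and 7 were called (-1.65 to -0.96), the exception being CFAP20 (-1.28 ± 0.45, adjusted p = 0.0626). CPF values were 5.05 ± 1.05 (adjusted p = 0.00146) for TGM3, 4.66 ± 1.05 (adjusted p = 0.00349) for FGF23, 4.05 ± 0.90 (adjusted p = 0.00324) for ATP6V0D2 and 5.56 ± 1.62 (adjusted p = 0.0234) for XIRP1. CYP7A1 had -1.84 ± 0.80 (adjusted p = 0.145) in CPF and so did not pass there. NAGS (0.25 ± 0.40, adjusted p = 0.746), HNF4A (0.52 ± 0.23, adjusted p = 0.156) and PPP1R3C (0.14 ± 0.80, adjusted p = 0.941) had CPF values nearer 0.

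The CPF change minus the FS change was called for 1 gene of 13530 (0.00739%) by the quasi-likelihood test, with 515 at an unadjusted p under 0.05. It was the gene ENSSSCG00000024378, without a symbol (-4.58 ± 0.87, adjusted p = 0.0321). Its counts were 4 to 6 at B and 0 to 2 at FR2 in CPF pigs and 0 to 4 and 1 to 19 in FS pigs, which is too few for a fold to be read. For the 20 leading genes the difference ran from -0.91 to 1.19 and none passed (smallest adjusted p = 1.0). For NAGS it was -1.38 ± 0.47 (adjusted p = 1.0) and for PPP1R3C -1.94 ± 0.94 (adjusted p = 1.0).

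**Figure D5:**
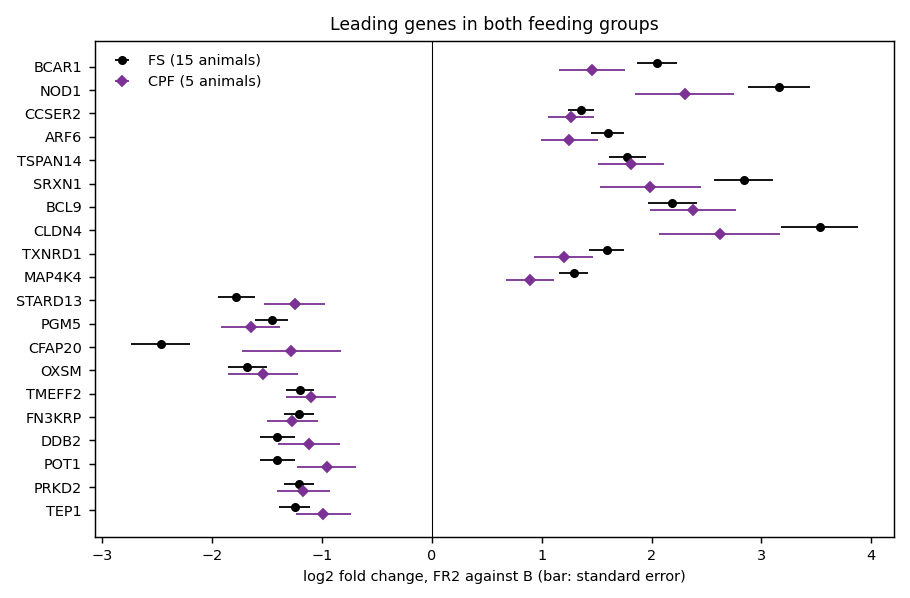
Log2 fold change from B to FR2 of the 20 leading genes in FS pigs (black circles, 15 animals) and CPF pigs (purple diamonds, 5 animals), with bars for 1 standard error. All 20 CPF values have the sign of the FS value, and the largest gap is that of CFAP20.

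Among the kept FS animals 3 were labelled Died and 12 Lived. Their changes from B to FR2 were compared by an interaction term in the 30 libraries. None of 12234 genes was called (0.0%) by edgeR's quasi-likelihood test, with 327 at an unadjusted p under 0.05, and DESeq2 called none either, with 445 at that p. In the 3 animals that died 86.7% to 96.9% of the genes risen in the other 14 were higher at FR2 and 79.8% to 87.2% of those fallen were lower (median changes 1.18 to 1.58 and -1.23 to -0.97), against 80.3% to 96.7% and 80.9% to 90.8% in the animals that lived other than animal 7.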

How the data were processed

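Liver RNA from 23 pigs was sequenced at 4 timepoints (92 libraries). By the submitters' processing notes and methods, the authors demultiplexed single reads with CASAVA 1.8.2, aligned them to Sscrofa10.2 with TopHat 1.5.0, sorted them with SAMtools, and deposited HTSeq counts per Ensembl gene without normalization. All 25322 identifiers were kept, and the FR8 library of 1 CPF animal that the authors omitted was left out.

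The analysis used R 4.3.3 with edgeR 4.0.16, DESeq2 1.42.0 and limma 3.58.1, and Python 3.11.15 with pandas 2.3.3, matplotlib 3.10.9 and numpy 2.4.6. All 4 timepoints of the 15 kept FS and 5 CPF animals (79 libraries, 6877117 to 16613261 counts) were fitted with TMM scaling, a term for each animal and separate time terms for FS and CPF, on genes whose CPM summed to 10 or more, by the 2-sided quasi-likelihood F test with Benjamini-Hochberg adjustment. The floor was set at 3 counts, which covers counting error only. Log2 fold changes of genes near that floor depend on edgeR's prior count. Died against Lived was an interaction term in the 30 libraries. FR2 and B libraries of the same animal deviated together (median residual correlation 0.30, 14 of 15 pairs over 0.1, against -0.03 and 53 of 210 between animals). No sequencing batch was given, so none was modeled.

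Symbols came from a gene name table (11804 identifiers) and, for 700 more, the study's tables, which named STARD13, FGF23, XIRP1, C3orf58 and THRB. The animals, lists and tests were chosen with earlier results of these data known, so list counts are descriptions. Named genes were the 10 called in each direction with the smallest adjusted p, the 5 with the largest change at a median of at least 10 CPM at B or FR2, up to 2 called members of each list in each direction by adjusted p, and each list's most abundant member, or its extreme members where none was called. Other called members, and FOS, HSPA5 and SOX9, were named after their values were seen. A few genes are not reported here, though they are counted in their lists.

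The test was checked on simulated FR2vB data with 13430 genes, where it recovered 98 of 100 genes changed by 1.5 log2 units and 100 of 100 changed by 3, with 2 false calls. The simulation held no differences between animals, no libraries like those of animals 7 and 8, and no changed genes of low level. These rates thus need not hold for the data. Other settings tried were scaling by RLE, a CPM sum of 3 or more, filterByExpr, DESeq2, the likelihood ratio test, no animal terms, all 18 FS animals, the 30 libraries alone, a striated muscle covariate, the adjusted p alone and leaving out each animal. Fits without animals 7 and 8, and without the FR2 and FR8 libraries of animal 8, were added after seeing the data.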

Additional observations from a re-analysis of the deposited data

Results flagged for a closer look

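The change from B to FR2 differed between the feeding groups for 1 gene by the interaction term. ENSSSCG00000024378 had a CPF minus FS difference of -4.58 on the log2 scale (adjusted p = 0.0321, edgeR's quasi-likelihood test), on 0 to 19 counts per library. The call was lost without animal terms, with all 18 FS animals, without any 1 of FS animals 1, 2, 4, 9, 17 and 18, and without any 1 of CPF animals 2, 3, 4 and 5.

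The FS levels at FR8 and FR2 differed in a test of that difference, with 888 genes higher and 774 lower at FR8. Without animals 7 and 8 the counts were 1131 and 973. These genes were found in the same FR2 libraries that enter the change from B to FR2.

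In the 5 CPF animals no change of the 20 leading genes had an outlying animal by Dixon's test.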

How the results depend on the processing

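The count of genes called at FR2vB in FS pigs (1676) stayed between 1464 (all 18 FS animals) and 1781 (a CPM sum of 3 or more) under the planned fits that keep both thresholds, with 1602 without the replicate block of animal terms, and was 6107 by the adjusted p alone. Leaving out single FS animals gave 1547 to 2057, the highest without animal 7. For FR8 minus FR2 (1662) all 18 FS animals gave 677 and the adjusted p alone 5722, and leaving out single animals gave 1550 to 2136. The CPF minus FS count (1) was 0 without the replicate block and 0 with all 18 FS animals, and 0 to 1 when single FS or CPF animals were left out. Died minus lived stayed at 0 in every fit run. Of 133 named genes with a test 92 were called, and 53 of these kept the call under every alternative. All 18 FS animals ended the most calls (33). GCLC was the only called gene that changed sign (0.07 without the replicate block). Uncalled genes that changed sign were ACTA1 (main value -0.36, 0.35 by the likelihood ratio test, 0.51 without the replicate block, 0.61 with the striated muscle covariate, 0.02 in the 30 libraries, 0.40 by DESeq2, and -1.24 to 0.90 when single animals were left out), CIDEC (0.23) and PDIA4 (0.28) with all 18 FS animals, DUSP1 (-0.01 with the muscle covariate), CD3D (-0.02 without animal 2, up to 0.45 without other animals), and PECAM1 (0.01 without animal 1, down to -0.12 without other animals, and 0.01 without animals 7 and 8). The cause was not tested. Depth limits genes with a few counts in most libraries, such as TGM3, EPO and LTF at B.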

Other observations

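A few further genes are described here, most of them markers of tissues other than liver. CMYA5, a protein of striated muscle, had 0.908, 2.02 and 6.04 CPM at B and 0, 0.845 and 3.55 CPM at FR2 as the lowest, median and highest of the 15 FS animals, and it was lower at FR2 in 15 of 15 (log2 fold change -1.33 ± 0.27 (adjusted p = 6.36e-05), edgeR's quasi-likelihood test). It was the only 1 of 5 tested striated muscle markers that was called. The muscle actin ACTA1 had 0, 0.096 and 32.1 CPM at B and 0, 0.188 and 69.1 CPM at FR2, its highest levels being those of animal 5 at B and animal 11 at FR2, with a log2 difference of -0.36 ± 0.80 (adjusted p = 0.742). TUBB1, a tubulin of platelets, was the only marker of its list that was tested and differed by 0.77 ± 0.30 (adjusted p = 0.0325), under the fold threshold. ALAS1, the first enzyme of heme synthesis, had 642, 1350 and 2310 CPM at B and 193, 1640 and 2180 CPM at FR2, and its lowest FR2 level was that of animal 7.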
